A study of Curvularia clavata with 15 samples.

Results

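The genes described here are 68 of the 10170 gene IDs of the filamentous fungus Curvularia clavata strain J1. On lignosulfonate medium their mean level was at least 2-fold higher without rpn-4 and at least 2-fold lower without CclaeA and without tah-1, each against the wild type (WT) on the same medium. RNA-seq was made from mycelia shaken for 4 days at 30 °C, with 3 libraries for each of 5 groups. The Δrpn-4, ΔCclaeA and Δtah-1 mutants and WT grew on 2% lignosulfonate with 0.25% glucose, and a further WT group grew on 2% glucose. Lignosulfonate is a water-soluble sulfonated lignin, and the mutants were made in a search for genes that control laccase, an enzyme that oxidises lignin. The labels do not say how each deletion was made, whether a mutant is 1 clone, or whether the libraries of a group are separate cultures. The p-values then cover only the spread between these libraries, which may be technical. That spread was estimated over all 5 groups together, so the mutant libraries also enter the p-values of the WT comparison.

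In filamentous fungi LaeA proteins are nuclear regulators of secondary metabolism, known first from Aspergillus, and genes of a secondary metabolite pathway often lie side by side on the chromosome. In budding yeast Rpn4 is a transcription factor that raises the expression of proteasome subunits and is itself degraded by the proteasome. The gene name tah-1 comes from Neurospora crassa, where it stands for tall aerial hyphae and belongs to a collection of transcription factor genes. The files pair no ID with a gene name, so the members are called by ID, no function is given to any of them, and the 3 deleted genes were not looked up among the IDs.

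Members were chosen from the values themselves. Each FPKM value (fragments scaled to transcript length and library size) was divided by a median-of-ratios size factor of its library, here called scaled FPKM. Group means were compared as log2(mean scaled FPKM + 1). The threshold was a difference of 1 in each of the 3 comparisons with WT on lignosulfonate. IDs with at least 10 FPKM in all 3 libraries of WT on 1 medium and under 1 FPKM in all 3 on the other were dropped. The levels in the 4 lignosulfonate groups are therefore a description of what was selected, with no test. The Δrpn-4 threshold was met by 9% of all IDs, that of ΔCclaeA by 6.82% and that of Δtah-1 by 7.8%, and 0.669% met all 3 and were kept. All 68 members passed the filter of at least 1 scaled FPKM in at least 3 libraries, as did 9254 IDs in all.

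Size factors ran from 0.683 to 0.696 in the Δrpn-4 libraries, 1.14 to 1.18 in ΔCclaeA, 0.807 to 1.21 in Δtah-1, 1.18 to 1.303 in WT on lignosulfonate and 1.08 to 1.12 in WT on glucose. The highest Δtah-1 factor belonged to replicate 2; without that library 67 IDs met the rule, 66 of them members. FPKM files carry no read counts, so the depth of each library is unknown. As deposited, without these factors, the median log2 difference of all tested IDs from WT on lignosulfonate was -0.80 in Δrpn-4, while it was -0.11 for ΔCclaeA and -0.33 for Δtah-1. All 68 members still lay above WT in Δrpn-4 and below WT in ΔCclaeA and Δtah-1 as deposited. The difference in Δrpn-4 then missed the 2-fold threshold for 25 of them.

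In these bulk samples, fewer cells expressing a gene and less RNA of it per cell cannot be told apart. The median log2 difference of the 68 members from WT on lignosulfonate was 2.47 in Δrpn-4, with a range of 1.04 to 4.81. It was -2.09 in ΔCclaeA, with a range of -6.69 to -1.0, and -2.10 in Δtah-1, with a range of -7.32 to -1.01. Over all tested IDs the same medians were -0.01, -0.01 and 0.01. As deposited, the members' medians were 1.61 in Δrpn-4, -2.23 for ΔCclaeA and -2.50 for Δtah-1. In 18 members the difference was at least 4-fold in all 3 mutants, and in 7 it was at least 8-fold in all 3. For 66 of the 68 the libraries of each mutant lay apart from those of WT on lignosulfonate without overlap, a pattern that 3.19% of all tested IDs showed and that the rule favours.

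**Figure D1:**
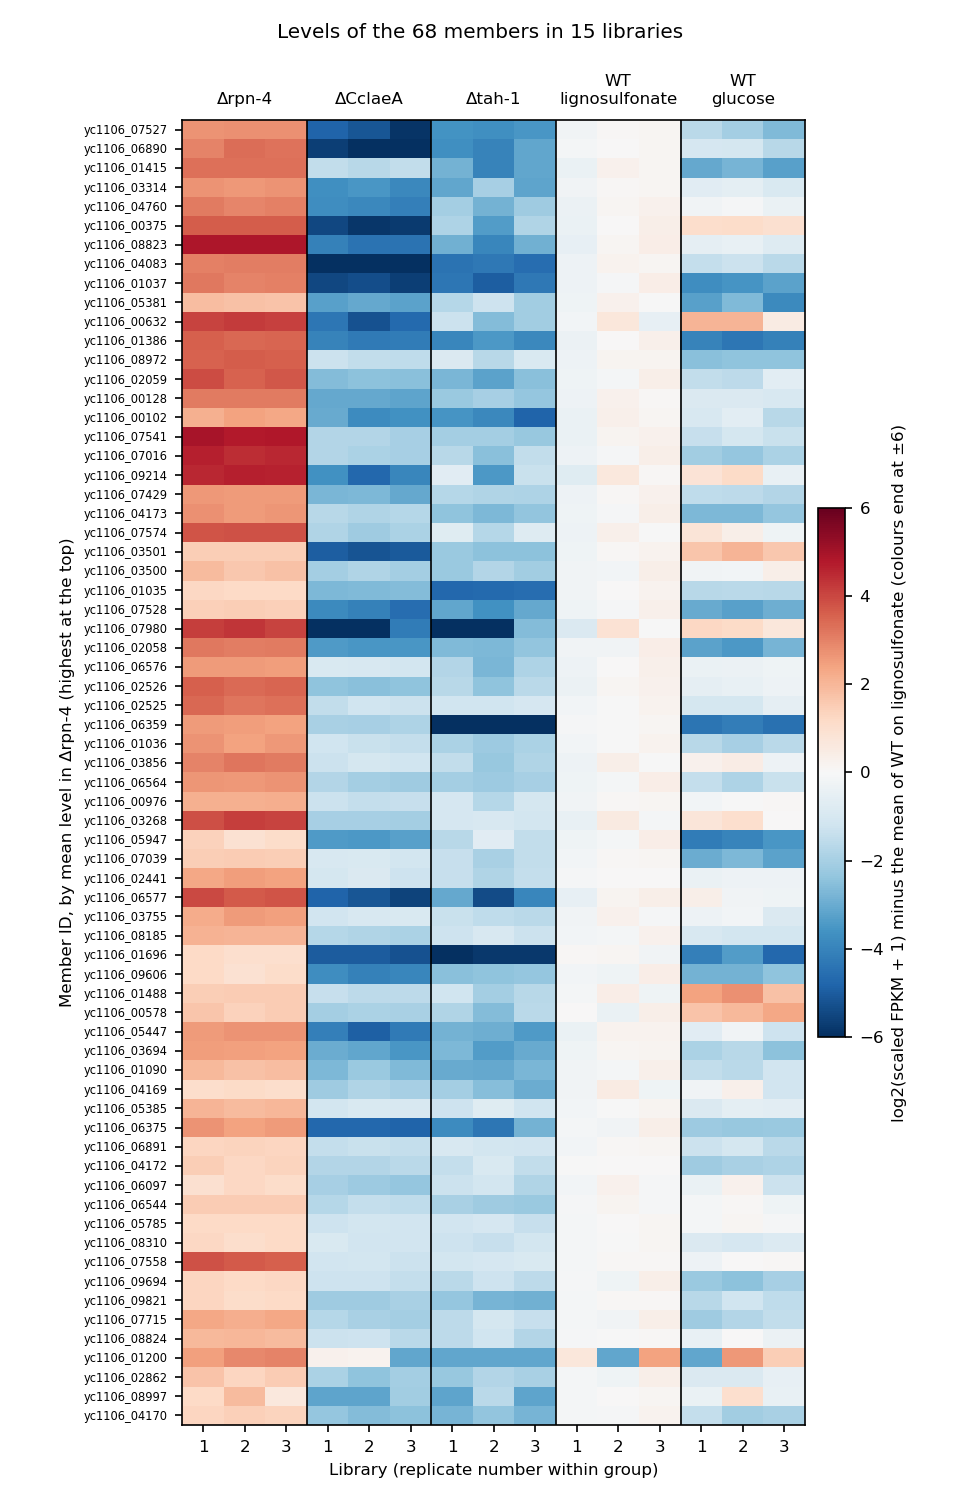
Heat map of the 68 members (rows, by mean level in Δrpn-4) in the 15 libraries (columns), as log2(scaled FPKM + 1) minus the mean of the 3 libraries of WT on lignosulfonate. Red marks higher and blue lower levels; apart from yc1106_01200, the Δrpn-4 columns are red and those of ΔCclaeA and Δtah-1 blue by the choice of members, while the WT glucose columns on the right hold both colours.

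The 68 IDs took a large share of the FPKM sum in Δrpn-4. They held 32.5%, 33.3% and 33.2% of the FPKM sum in the Δrpn-4 libraries. In ΔCclaeA they held 0.909%, 0.855% and 0.796%, and in Δtah-1 1.20%, 1.15% and 1.21%. WT libraries on lignosulfonate gave 7.69%, 9.24% and 9.64%, and those on glucose 3.99%, 3.71% and 3.42%. The share was thus highest in Δrpn-4 and lowest in ΔCclaeA, with no overlap between any of the 5 groups. The rule favours a high share and high ranks in Δrpn-4 and low shares in ΔCclaeA and Δtah-1, though not which of these mutants is lower. The pair with the highest level in Δrpn-4, yc1106_07527 and yc1106_06890, held 12.4% ± 0.873 of the sum there and 3.31% ± 0.250 in WT on lignosulfonate (SD, n = 3 each). Of the 10 most abundant IDs in Δrpn-4, 8 were members, and 30 of its 100 most abundant. WT on glucose is a group whose levels the rule used only in the size factors and to drop IDs that switch between media. There, 7 members (10.3%) were among the 100 most abundant of the 9254 tested IDs, and 26 (38.2%) among the 1000 most abundant.

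**Figure D2:**
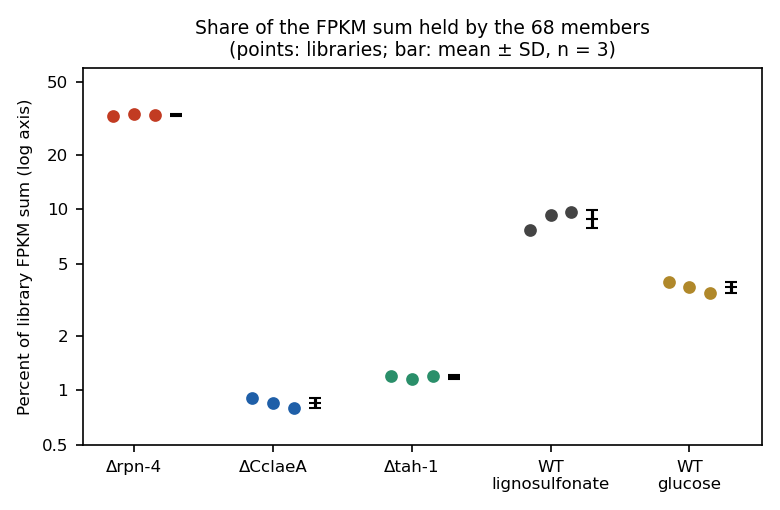
Percent of each library's FPKM sum held by the 68 members, on a log axis, with the 3 libraries of each group as points and their mean ± SD as a bar (n = 3). Δrpn-4 lies near 33% and ΔCclaeA and Δtah-1 near 1%, with WT on lignosulfonate and on glucose in between.

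Among the members, yc1106_07527 had the highest level. Its scaled FPKM was 91749, 95517 and 94028 in Δrpn-4, 513, 399 and 243 in ΔCclaeA, and 1164, 1094 and 1279 in Δtah-1, against 12368, 14953 and 15454 in WT on lignosulfonate. WT on glucose had 4580, 3442 and 2243. The 5 groups did not overlap, and the mean in Δrpn-4 was 6.58 times that of WT on lignosulfonate, or 3.62 times as deposited. yc1106_06890 followed with 76995, 100767 and 94322 in Δrpn-4, 194, 118 and 129 in ΔCclaeA, and 776, 615 and 1148 in Δtah-1, against 9053, 10024 and 10761 in WT on lignosulfonate. It had 4950, 4770 and 3173 on glucose, again with all groups apart. Its log2 difference from WT was -6.07 in ΔCclaeA and -3.55 in Δtah-1.

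The largest log2 difference of a member in Δrpn-4 was that of yc1106_08823, at 4.8051, with yc1106_07541 almost level at 4.8046. The scaled FPKM of yc1106_08823 was 22776, 23202 and 22927 in Δrpn-4, 47.0, 36.0 and 36.4 in ΔCclaeA, and 106, 51.8 and 105 in Δtah-1, against 556, 871 and 1035 in WT on lignosulfonate. The Δrpn-4 mean was 28.0 times that of WT, or 15.5 times as deposited, while WT on glucose, at 553, 585 and 465, overlapped with WT on lignosulfonate only between 556 and 585. In ΔCclaeA the lowest log2 difference was that of yc1106_04083, at -6.69, with 32.6, 16.3 and 26.8 scaled FPKM there. It had 22032, 22465 and 22173 in Δrpn-4 and 123, 138 and 111 in Δtah-1, against 2184, 3065 and 2882 in WT on lignosulfonate. On glucose WT had 1000.3, 1106 and 884, below the WT libraries on lignosulfonate and above those of ΔCclaeA and Δtah-1.

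In Δtah-1 the lowest log2 difference belonged to yc1106_06359, which was listed at 1.13, 0 and 0.621 scaled FPKM there. It had 1473, 1418 and 1338 in Δrpn-4 and 63.7, 61.4 and 68.9 in ΔCclaeA, against 237, 245 and 271 in WT on lignosulfonate. The log2 difference from WT was -7.32 in Δtah-1 and -1.94 in ΔCclaeA. Because the deleted genes were not matched to IDs, whether any member is a deleted gene was not tested.

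The rule fixes that both ΔCclaeA and Δtah-1 lie below WT, but not which of them is lower. In 30 members all 3 ΔCclaeA libraries lay below all 3 Δtah-1 libraries, against 38% of all tested IDs. In 15 members they lay above, against 34.6%, and in 23 they overlapped. The 30 are 44.1% of the members and the 15 are 22.1%. yc1106_00375 was one of the 30, with 42.8, 32.5 and 34.3 scaled FPKM in ΔCclaeA and 524, 185 and 549 in Δtah-1. yc1106_01035 went the other way, with 241, 248 and 255 in ΔCclaeA and 58.2, 60.6 and 65.5 in Δtah-1. These levels chose the members, so the difference between the mutants was not tested.

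The comparison of WT on lignosulfonate with WT on glucose was the only one tested. Its size was not used by the rule, apart from the dropped IDs. This comparison asks how the same genes stand in WT when the medium changes, with lignosulfonate and the amount of glucose changing together. The WT libraries on lignosulfonate also served as the common reference of the rule. It asked that they stand at least 2-fold above ΔCclaeA and Δtah-1 and at least 2-fold below Δrpn-4, so it can shift this comparison. The size of such a shift was not tested, and members were not matched to IDs of like level. Of the 68 members, 34 were higher and 5 (7.35%) lower on lignosulfonate, by limma at a Benjamini-Hochberg adjusted p under 0.05 over all tested IDs and at least 2-fold. Over all 9254 tested IDs, 22.7% were higher and 18.1% lower. Without the 186 IDs dropped as switching, 21.6% and 18% were. The median log2 change was 0.98 over the members and 0.00 over all tested IDs. All 3 libraries on lignosulfonate lay above all 3 on glucose for 41 members, against 37.4% of all tested IDs, and below them for 4, against 37.1%. With FPKM as deposited, which shifts the median of all tested IDs to 0.17, the members gave 37 higher and 4 lower, and all tested IDs 2405 higher and 1355 lower. With FPKM rescaled to equal sums, which shifts that median to 0.35, they gave 41 and 4. All tested IDs then split into 2778 higher and 1088 lower, where the size factors gave 2104 and 1673.

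**Figure D3:**
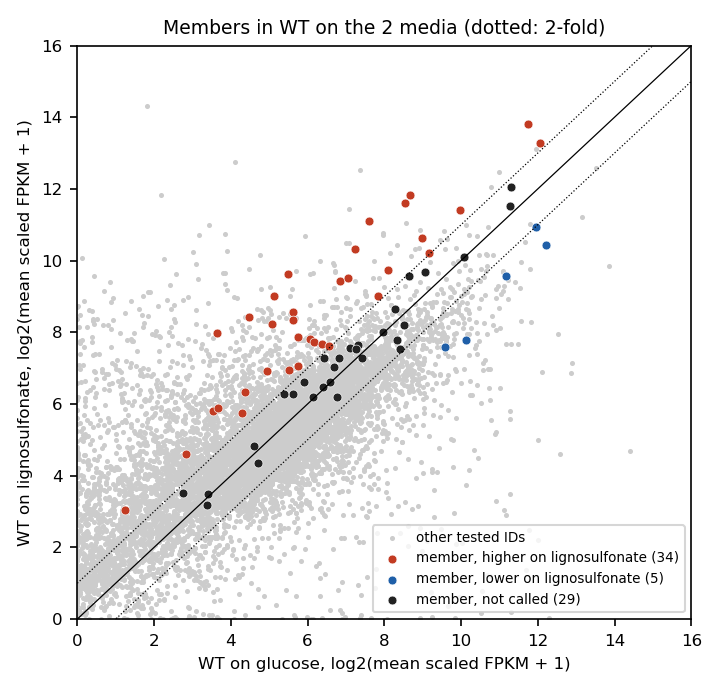
Mean level of every tested ID in WT on lignosulfonate (vertical) against WT on glucose (horizontal), both as log2(mean scaled FPKM + 1), with members in colour and a 2-fold difference dotted. The 34 members called higher lie above the upper dotted line at low and high levels, and the 5 called lower lie between 764 and 4760 scaled FPKM on glucose.

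The size of the change varied widely. Of the 68 members, 18 (26.5%) were called at least 4-fold higher, 9 (13.2%) at least 8-fold and 3 (4.41%) at least 16-fold. Over all tested IDs the shares were 11.2%, 5.81% and 3.12%, and without the IDs dropped as switching 9.76%, 4.31% and 2.12%. yc1106_06359 had 251 ± 18.1 scaled FPKM on lignosulfonate and 11.6 ± 1.60 on glucose (SD, n = 3 each), a log2 change of 4.33 (SE 0.20, limma adjusted p = 6.04e-11). yc1106_01386 had 608, 793 and 969 scaled FPKM on lignosulfonate and 47.7, 38.0 and 45.0 on glucose, a log2 change of 4.13 (SE 0.17, limma adjusted p = 1.38e-11). On lignosulfonate yc1106_01386 had 47.6, 39.7 and 40.9 in ΔCclaeA, which overlapped with WT on glucose, and 51.2, 69.4 and 53.1 in Δtah-1, which lay just above it. Its Δrpn-4 libraries had 9179, 8500 and 8692.

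Among the 10 members of highest level in Δrpn-4, 6 (60%) were higher on lignosulfonate, 1 (10%) was lower and 3 were not called. Over all 68 members the shares were 50% higher and 7.35% lower, and over all tested IDs 22.7% and 18.1%. yc1106_05381 rose by a log2 change of 3.24 (SE 0.26), yc1106_01415 by 3.04 (SE 0.25) and yc1106_07527 by 2.11 (SE 0.27), with limma adjusted p = 4.27e-08, 6.39e-08 and 5.69e-06. yc1106_04083 rose by 1.43 (SE 0.21, limma adjusted p = 2.25e-05) and yc1106_06890 by 1.23 (SE 0.25, limma adjusted p = 0.000487). A 2-fold change was not reached by yc1106_03314, at 0.73 (SE 0.25, limma adjusted p = 0.0181), and yc1106_04760 stood at 0.24 (SE 0.21, limma adjusted p = 0.326). yc1106_08823 stood at 0.58 (SE 0.26, limma adjusted p = 0.0596) and was not called between the media. Outside these 10, yc1106_07541 had nearly the same difference in Δrpn-4, with a mean 28.1 times that of WT on lignosulfonate. It was called higher on lignosulfonate, at 1.26 (SE 0.16, limma adjusted p = 6e-06), and was named after its values were seen.

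The 5 members that were lower on lignosulfonate had means between 764 and 4760 scaled FPKM on glucose. yc1106_01488 had 201, 282 and 180 scaled FPKM in WT on lignosulfonate and 1165, 1437 and 743 on glucose, a log2 change of -2.30 (SE 0.24, limma adjusted p = 7.35e-07). yc1106_00578 had 191, 143 and 241 on lignosulfonate and 617, 724 and 951 on glucose, a log2 change of -2.0 (SE 0.24, limma adjusted p = 3.3e-06). Both, and yc1106_03501 with 1392 ± 235 on lignosulfonate and 4760 ± 744 on glucose (SD, n = 3 each), had a mean in WT on glucose above that of Δrpn-4 on lignosulfonate. They were the only 3 members of that kind.

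For yc1106_00632, the fourth, the log2 change was -1.53 (SE 0.42, limma adjusted p = 0.00482), with 630, 1149 and 502 scaled FPKM on lignosulfonate and 2916, 2935 and 1018 on glucose, so that the media overlapped; it was named after its values were seen. The fifth, yc1106_00375, had 1449, 1945 and 2447 on lignosulfonate and 3998, 4134 and 3674 on glucose. Its log2 change of -1.05 (SE 0.32, limma adjusted p = 0.00908) fell short of 2-fold at -0.86 as deposited, at -0.67 when FPKM was rescaled to equal sums, and at -0.85 without WT replicate 1 on lignosulfonate.

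Set among the 4 lignosulfonate groups, the glucose level of a member could take any place. For 40 members the mean in WT on glucose lay below WT on lignosulfonate and above both ΔCclaeA and Δtah-1. For 16 members it lay below at least 1 of these mutants, which the rule sets at least 2-fold below WT on lignosulfonate, and all 16 were called higher on lignosulfonate. In 7 of them it lay below both, as for yc1106_07039, with 187 ± 12.6 scaled FPKM in ΔCclaeA and 125 ± 24.4 in Δtah-1 against 47.9 ± 8.97 in WT on glucose (SD, n = 3 each). For 12 members WT on glucose lay above WT on lignosulfonate, and 5 of these were called lower on lignosulfonate.

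Of the 29 members not called between the media, 10 had an adjusted p under 0.05 by limma but a change under 2-fold, 9 of them higher on lignosulfonate. For 1 member, yc1106_07980, the change was over 2-fold, lower on lignosulfonate, without passing the test (log2 change -1.02, SE 1.18, limma adjusted p = 0.447). That fit took its spread from all 15 libraries, mutants included. With only the 6 WT libraries fitted, 6 members were called lower, namely yc1106_07980 and those described above as lower. In WT yc1106_07980 had 91.3, 304 and 163 scaled FPKM on lignosulfonate and 395, 365 and 266 on glucose. It was listed at 0, 0 and 8.17 in ΔCclaeA and at 0, 0 and 26.1 in Δtah-1. It was 1 of 4 members listed at 0 in some library. Another, yc1106_01200, was listed at 0 in all 3 Δtah-1 libraries and at 13.0, 0 and 45.5 in WT on lignosulfonate, so its place in the set rests on values that vary widely between replicates. It was also 1 of the 2 members whose mutant libraries overlapped with WT on lignosulfonate. The other was yc1106_09214, at 125, 17.8 and 80.2 in Δtah-1 against 123, 318 and 212 in WT on lignosulfonate. These IDs were named after their values were seen.

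Members moved together between the replicates of WT on lignosulfonate. Replicate 1 was the lowest of the 3 libraries for 57 of the 68 members (83.8%), against 22.3% of all tested IDs. The median member deviated from its group mean by -0.21 there on the log2 scale, and stood at 0.04 in replicate 2 and 0.17 in replicate 3. As deposited, replicate 1 was the lowest for 49 members, against 10.2% of all tested IDs. The order of replicates within a group was not used by the rule. The median coefficient of variation over members was 20.2% in WT on lignosulfonate, against 11.2% over all tested IDs. In Δrpn-4 it was 5.37% against 8.11%, in ΔCclaeA 9.64% against 7.37%, in Δtah-1 24.0% against 17.7% and in WT on glucose 18.5% against 16.6%. IDs of like level were not matched here. The median level was 1300 scaled FPKM over members against 30.5 over all tested IDs in Δrpn-4, and 219 against 30.8 in WT on lignosulfonate. Replicate 2 of Δtah-1 gave the lowest value for 33 members (48.5%), against 41.4% of all tested IDs. Without WT replicate 1 on lignosulfonate, 71 IDs met the rule, 65 of them members, and 35 of the 68 members were higher and 4 lower between the media.

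**Figure D4:**
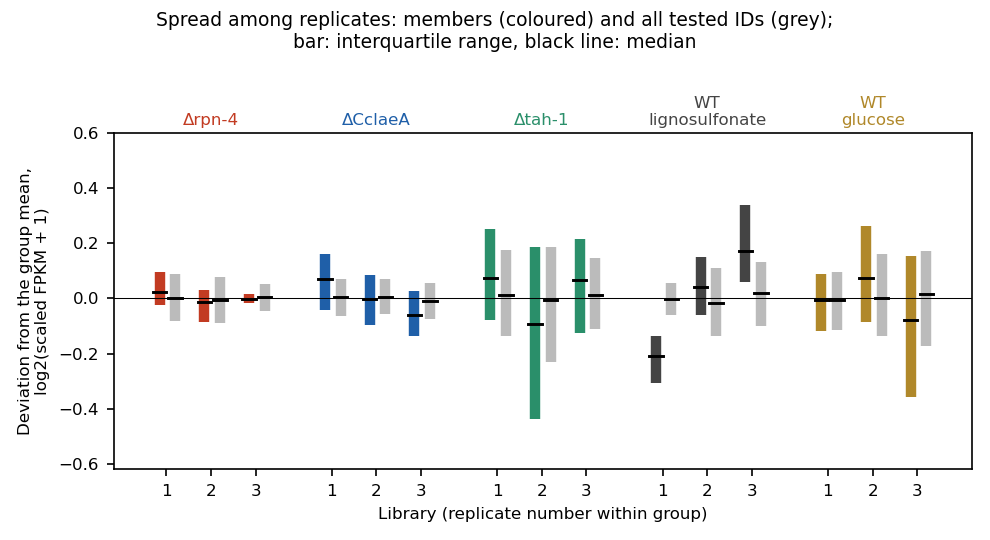
Deviation of each library from its group mean on the log2(scaled FPKM + 1) scale, with the interquartile range and median of the 68 members in colour and of all tested IDs in grey. In WT on lignosulfonate the members' median is -0.21 in replicate 1 and 0.17 in replicate 3, while the medians of all tested IDs stay near 0.

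Many members had neighbouring ID numbers. In all, 21 of the 68 (30.9%) belonged to 10 runs of consecutive IDs, 9 pairs and 1 run of 3. Members made up 0.669% of all IDs, which is a different measure from the share with a member beside them. The adjacency is described without a test, since the order of genes on the chromosomes was not used here. Neighbouring genes can overlap, and the sources do not say whether counting used the strand, so the part of shared reads in these runs was not tested.

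The run of 3 was yc1106_01035 to yc1106_01037. Its mean scaled FPKM was 3601, 1343 and 18102 in Δrpn-4, 248, 89.2 and 47.9 in ΔCclaeA, and 61.4, 55.2 and 95.2 in Δtah-1, against 1580, 224 and 2209 in WT on lignosulfonate. All 3 were higher on lignosulfonate than on glucose in WT, with log2 changes of 1.64 (SE 0.12), 1.75 (SE 0.14) and 3.50 (SE 0.21) and limma adjusted p = 1.33e-08, 4.76e-08 and 1.43e-09. The ID before them, yc1106_01034, fell just outside the set, with log2 differences from WT of 0.98 in Δrpn-4, -2.69 for ΔCclaeA and -2.58 for Δtah-1.

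Around yc1106_04169 to yc1106_04173 there were 4 members of 5 IDs. The ID between the pairs, yc1106_04171, had 316 scaled FPKM in Δrpn-4, 103 for ΔCclaeA and 238 for Δtah-1, against 186 in WT on lignosulfonate, and met none of the 3 thresholds. yc1106_04173 had 4235 ± 215 in Δrpn-4, 205 ± 9.95 for ΔCclaeA and 120 ± 14.8 for Δtah-1, against 687 ± 152 in WT on lignosulfonate (SD, n = 3 each). Levels within the stretch were far apart, since yc1106_04170 had 20.1 ± 1.09 in Δrpn-4 and 7.20 ± 1.11 in WT on lignosulfonate. yc1106_04170, yc1106_04172 and yc1106_04173 were higher on lignosulfonate than on glucose, by log2 changes of 1.82, 1.98 and 2.57 (SE 0.18, 0.13 and 0.16, limma adjusted p = 3.29e-07, 4.16e-09 and 2.05e-09). yc1106_04169 was not called, at 0.35 (SE 0.31, limma adjusted p = 0.322).

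The pair with the most abundant member was yc1106_07527 and yc1106_07528. yc1106_07528 had 3377, 3482 and 3376 scaled FPKM in Δrpn-4, 89.3, 74.2 and 52.4 in ΔCclaeA, and 143, 101 and 148 in Δtah-1, against 1060, 1216 and 1538 in WT on lignosulfonate. On glucose it had 155, 129 and 162, a log2 change of 3.08 (SE 0.20, limma adjusted p = 3.74e-09) between the media. Its Δrpn-4 mean was 2.68 times that of WT on lignosulfonate, and for its neighbour yc1106_07527 the ratio was 6.58. As deposited these ratios were 1.48 and 3.62.

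In the pair yc1106_06890 and yc1106_06891 the levels were further apart, with 90695 and 321 scaled FPKM in Δrpn-4 and 9946 and 132 in WT on lignosulfonate. Both were higher on lignosulfonate than on glucose, yc1106_06891 by a log2 change of 1.31 (SE 0.13, limma adjusted p = 3.18e-07). yc1106_02058 and yc1106_02059 had 2591 ± 80.4 and 6741 ± 830 in Δrpn-4 against 300 ± 77.1 and 519 ± 123 in WT on lignosulfonate (SD, n = 3 each). They were also both higher on lignosulfonate, by 3.15 (SE 0.18) and 1.23 (SE 0.24), with limma adjusted p = 5.85e-10 and 0.000377.

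Other pairs were not called between the media. yc1106_06576 and yc1106_06577 had 2306 and 1004 scaled FPKM in Δrpn-4, 196 and 1.06 in ΔCclaeA, and 94.4 and 4.03 in Δtah-1, against 399 and 72.9 in WT on lignosulfonate and 310 and 70.1 on glucose. Their log2 changes between the media were 0.34 (SE 0.22) and 0.04 (SE 0.43), with limma adjusted p = 0.166 and 0.934. yc1106_02525 and yc1106_02526 stood at 0.88 (SE 0.15) and 0.44 (SE 0.19), with limma adjusted p = 0.000108 and 0.0512, and yc1106_02525 passed 2-fold as deposited, at 1.06. yc1106_08824, next to yc1106_08823, stood at 0.24 (SE 0.16, limma adjusted p = 0.186). It had 108 ± 2.05 in Δrpn-4, 10.1 ± 1.61 for ΔCclaeA and 9.03 ± 2.02 for Δtah-1, against 27.5 ± 1.34 in WT on lignosulfonate (SD, n = 3 each).

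In the pair yc1106_03500 and yc1106_03501 the members differed in the medium comparison. yc1106_03500 had 4065, 3299 and 3646 scaled FPKM in Δrpn-4, 261, 302 and 263 in ΔCclaeA, and 226, 321 and 254 in Δtah-1, against 940, 946 and 1390 in WT on lignosulfonate. Its change between the media was 0.02 (SE 0.19, limma adjusted p = 0.942). yc1106_03501 was lower on lignosulfonate, at a log2 change of -1.78 (SE 0.15, limma adjusted p = 7.65e-08). The difference between these 2 changes was not tested. Counted over the 10 runs, every member was higher on lignosulfonate in 5, none was called in 3 and the calls differed in 2. Of the 21 members in runs, 12 (57.1%) were higher, 1 (4.76%) was lower and 8 were not called. Over all 68 members 50% were higher and 7.35% lower, and over all tested IDs 22.7% and 18.1%.

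**Figure D5:**
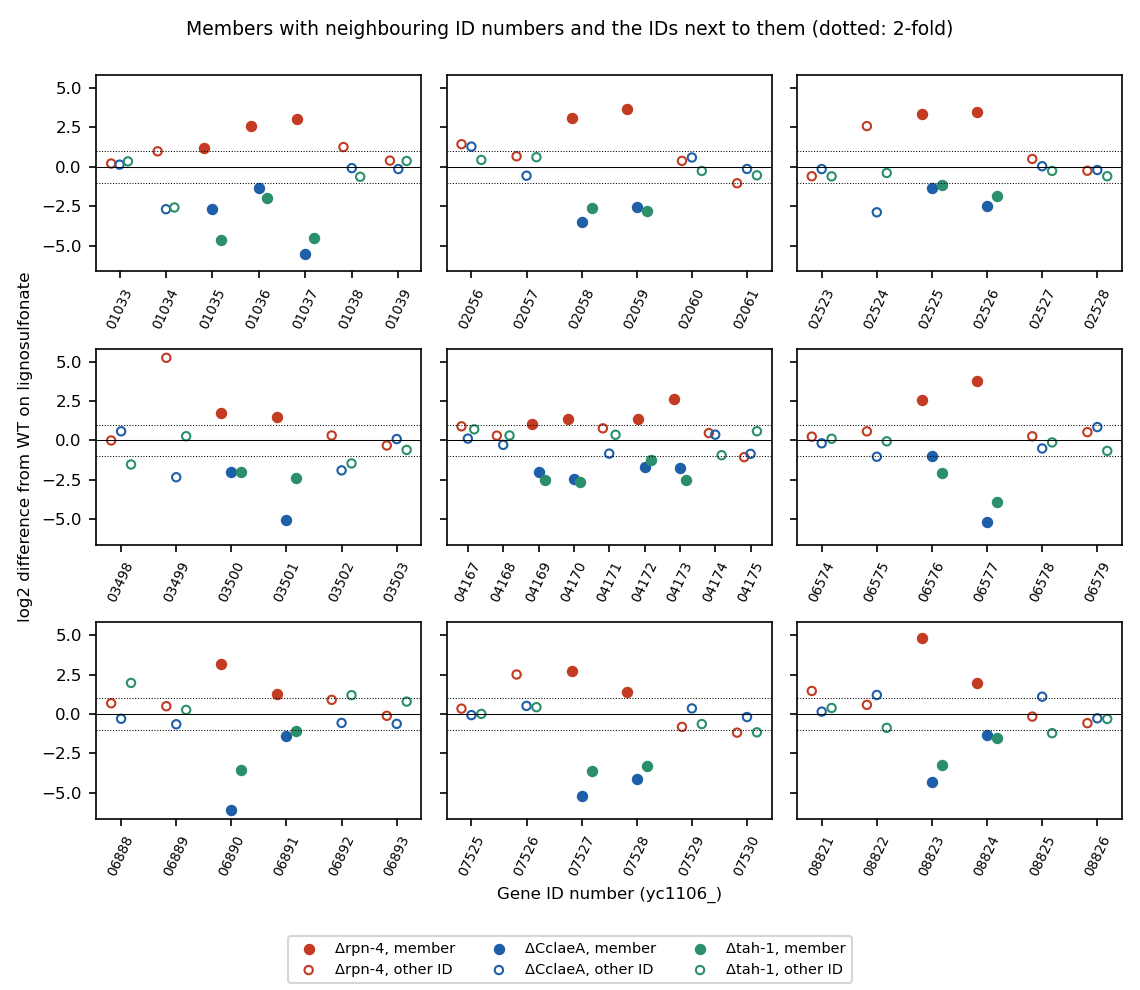
Log2 difference of each mutant from WT on lignosulfonate for the members with neighbouring ID numbers (filled) and the 2 IDs on each side (open), with the 2-fold thresholds dotted. The runs yc1106_04169 to yc1106_04170 and yc1106_04172 to yc1106_04173 share a panel, in which the open points of yc1106_04171 lie between the thresholds.

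IDs next to a member that were not members themselves numbered 113. Of these, 25 (22.1%) were at least 2-fold higher in Δrpn-4, against 9% of all IDs. At least 2-fold lower were 16 (14.2%) in ΔCclaeA, against 6.82%, and 11 (9.73%) in Δtah-1, against 7.8%. Exactly 2 of the 3 thresholds were met by 12 of the neighbours (10.6%), against 2.29% of all non-members. Between the media, 22 of the 109 tested neighbours (20.2%) were higher on lignosulfonate and 20 (18.3%) lower, against 22.7% and 18.1% of all tested IDs.

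Some neighbours met 2 of the 3 thresholds. yc1106_02524, before the pair yc1106_02525 and yc1106_02526, had 7596 scaled FPKM in Δrpn-4, 171 for ΔCclaeA and 968 for Δtah-1, against 1269 in WT on lignosulfonate, so it missed the threshold in Δtah-1. yc1106_03499, before yc1106_03500, had 1157 in Δrpn-4, 5.08 for ΔCclaeA and 35.9 for Δtah-1, against 29.7 in WT on lignosulfonate. Its log2 difference of 5.24 in Δrpn-4 was above that of any member. In Δtah-1 yc1106_03499 lay above WT, at 0.26, and so missed that threshold. yc1106_03502, after yc1106_03501, had 7586 in Δrpn-4, 1633 for ΔCclaeA and 2217 for Δtah-1, against 6104 in WT on lignosulfonate, and missed the threshold in Δrpn-4. These 3 were named after their values were seen.

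At the thresholds, members and other IDs differed little. The member nearest the Δrpn-4 threshold was yc1106_04169, at 1.04, and the nearest outside was yc1106_01034, at 0.98. In ΔCclaeA they were yc1106_07039, at -1.0044, and yc1106_01178, at -0.987. In Δtah-1 they were yc1106_07574, at -1.007, and yc1106_09215, at -0.997. Only yc1106_08989 met all 3 thresholds and was dropped as switching between the media, with 945 scaled FPKM in Δrpn-4, 12.5 for ΔCclaeA and 60.01 for Δtah-1, against 392 in WT on lignosulfonate and 0.229 on glucose.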

How the data were processed

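RNA-seq libraries of mycelia were deposited as 1 table each. The values are FPKM as the authors deposited them, per the file headers of the 6 WT libraries; the headers of the 9 mutant libraries give none, though their values have a similar range. The mutant contrasts thus compare files with different headers. Tools listed in the submitters' processing notes, without roles, are RSEM 1.3.3, HISAT2 2.1.0, fastp 0.19.5 and DESeq2. The build was not given in the sources used here. Depth is unknown from FPKM, so no counting error was computed.

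From the deposited FPKM, size factors were medians of ratios over the 8858 IDs above 0 in all 15 libraries. IDs with at least 1 scaled FPKM in at least 3 libraries were fitted as log2(scaled FPKM + 1), which understates changes of low values, with limma 3.58.1 (trend, robust) in R 4.3.3, with a mean per group over all 15 libraries. Python 3.11.15, NumPy 2.4.6, pandas 2.3.3 and matplotlib 3.10.9 did the rest. On simulated data for this comparison (9254 genes, 100 changed at each size) the fit recovered 96% at a log2 change of 1.5 and 100% at 3, with 0 false calls. The changed genes had a mean log2(scaled FPKM + 1) of at least 3 on glucose, and the simulated noise was independent between genes. Values were simulated after scaling, with far fewer changed genes than were called in the data, so errors from the size factors were not covered. Recovery at lower levels, and false calls where genes move together between replicates, were not tested. In any pair of replicates at most 1.50% of values were identical.

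The members, lists and rules were chosen with earlier results of these data known. Named members were the 10 highest in Δrpn-4, the 2 largest rises and falls between the media, members with consecutive IDs and those at the thresholds; others were named after their values were seen. Alternatives were another pseudocount, no filter, other scalings, only the WT libraries, no minimum fold change, a replicate block, other thresholds, and leaving out each replicate. Gene lists by product name were not run, since no ID was annotated here.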

Additional observations from a re-analysis of the deposited data

How the results depend on the processing

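Among members, the counts of 34 higher and 5 lower on lignosulfonate ran from 33 to 35 and from 4 to 5 when 1 WT library was left out, and stayed within 1.5 times under every other alternative run; without Δtah-1 replicate 2, added after the data were seen, they were 34 and 5. Over all tested IDs, 2104 higher and 1673 lower became 2778 and 1088 with FPKM rescaled to equal sums, which moves the median log2 change of all IDs to 0.35, and 3435 and 3409 with no minimum fold change. Leaving out 1 WT library gave 2070 to 2149 and 1509 to 1753. The rule kept 52 IDs as deposited, 43 of them members, 42 with equal sums, 33 at a threshold of 1.5 and 62 to 71 with 1 library left out. Without yc1106_07527 the members' share of the FPKM sum was 26.7% in Δrpn-4, 1.04% in Δtah-1, 6.91% in WT on lignosulfonate and 3.35% in WT on glucose. Of 476 recomputed log2 changes of the 34 named members between the media, 458 kept direction and call, 6 gained and 3 lost the call, and 9 changed sign, none of these called under either setting. Not among these 34 were yc1106_07980, yc1106_01200, yc1106_09214 and yc1106_07541, also named above, whose changes had an SE of 1.18, 1.58, 0.59 and 0.16. With 1 library left out, the changes ran from -0.17 to 0.19 for yc1106_03500, from -0.13 to 0.29 for yc1106_06577 and from -0.040 to 0.67 for yc1106_04169, and with equal sums yc1106_07574 stood at 0.094; beyond fewer samples, the cause was not tested. The replicate number as a block gave 34 higher and 5 lower members; the deviations of same-numbered WT libraries correlated at 0.00, 0.45 and 0.51 across genes, 2 of the 3 lignosulfonate libraries correlated best with their own number, and the labels do not say that a number pairs libraries. The unknown depth limits the lowest values most.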
